A study of Nothobranchius furzeri with 39 samples.

Results

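In livers of 2-month-old turquoise killifish (*Nothobranchius furzeri*, a short-lived teleost), 156 of the 25099 counted genes were clearly higher in males, with every male above every female. They were chosen by a fixed rule on CPM, a gene's count divided by the library's total count and multiplied by 1000000. On x = log2(CPM + 1), the mean of the 5 males had to lie at least 1 above the mean of the 6 females, and the lowest male above the highest female. The rule took in 0.622% of all genes, and the mirrored rule took in 76 genes that were higher in females. Since the male and female livers chose the members, their difference is described here and not tested. The genotype labels, the brains and the 3-month fish did not enter the rule. The genotype contrasts in 2-month liver do use the livers that chose the members, so they are not independent of that choice.

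The 2-month livers came from 2 males and 2 females of the ATMcGAS double mutant, 1 male and 2 females of the ATM mutant, and 2 males and 2 females of WT; a second liver of an ATM mutant male (sample 3) was not analysed here. ATM encodes a kinase of the DNA damage response, and cGAS a sensor of cytosolic DNA. Brains of the same 3 genotypes, 2 per sex and genotype, share their sample numbers with the livers. A second experiment held livers of 3-month-old males, 3 of the Blm1 mutant and 4 of WT. Another held 3-month brains of cGAS mutants (2 males and 3 females with counts; the library of another male holds 0 counts) and of WT (1 male and 1 female); the protocol given for these names livers where the tissue label says brain, and their tissue markers are given with their results. With so few fish in a group, the tests below rest on a spread shared between groups, and the p-values measure the spread between these samples, which may in part be technical. What the mutant alleles are, and whether the fish of a group come from separate broods, is not given in the sources used here. Livers and brains are bulk tissue, so fewer cells of a type and less RNA per cell cannot be told apart.

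In egg-laying vertebrates the female liver makes yolk precursors under oestrogen, and growth hormone and sex steroids set much of the other sex difference of the liver in mammals and fish. Genes higher in male liver of other vertebrates include enzymes of steroid, drug and lipid metabolism. Lpcat4, the gene used to mark the male liver here, encodes an acyltransferase that attaches fatty acids to lysophospholipids, a step by which the cell remodels its membrane lipids.

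The libraries of the livers held 24998412 to 36815981 counts. A pair of features of the libraries touches the members. First, the 20 most-counted genes took 30.4% to 37.4% of all counts in all mutant livers and WT males, but 54% and 59.8% in WT females 3 and 4. The yolk precursor gene *vtg3* stood at 3890 and 4.45 CPM in the double mutant females, at 1571 and 6622 CPM in the ATM mutant females and at 36847 and 41571 CPM in these WT females. In males it did not exceed 1.01 CPM. Counts taken by a few genes lower the CPM of all others. With trimmed-mean (TMM) scaling, the median male minus female difference of the 13393 genes over 1 CPM was 0.01, against 0.27 without it. With TMM scaling all 156 members had a higher male mean (median difference 1.05, against 1.32 without). As the rule asked for a difference of at least 1, this was largely set by the choice of members. After scaling 108 of the 156 had no overlap between the sexes, where by the rule all had none before it, and 66 met the whole rule. Second, double mutant male 4 carried macrophage and leukocyte markers (7 genes of the list in the table, csf1ra, marco and ptprc among them) at a summed 332 CPM. The other males had 6.9 to 128 CPM, with WT male 1 the highest of them, and the females 10.8 to 20 CPM. Of the 13 hepatocyte markers in the table, all were counted in every liver. Their sum was 236901 and 158989 CPM in the double mutant males, 204439 CPM in the ATM mutant male and 217679 and 187983 CPM in the WT males, against 142967 and 173395 CPM in the double mutant females, 153772 and 142746 CPM in the ATM mutant females and 45804 and 40909 CPM in the WT females. *Hpx*, 1 of the 13, gave 7148 to 71636 CPM of these sums in males and 346 to 4818 CPM in females. It is itself a member, so the sums are not independent of the rule. All 13 had a higher male mean, with a median difference of 0.69 in log2(CPM + 1), or 0.38 with TMM scaling. The 6 markers of neurons and brain summed to at most 2.95 CPM. Testis and germ cell markers summed to 7.07 to 12.7 CPM in males and 2.2 to 8.98 CPM in females, and exocrine pancreas markers to 21.5 to 143 CPM and 35.6 to 417 CPM. The part of these cells in the members' levels was not tested.

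The median level over the 156 members was 4.82 and 5.26 log2(CPM + 1) in the double mutant males, 4.50 in the ATM mutant male and 4.56 and 4.46 in the WT males. In females it was 3.26 and 3.40 in double mutants, 3.22 and 3.11 in ATM mutants and 2.53 and 2.35 in WT. The highest male was a double mutant and the lowest females were the WT pair. With TMM scaling the genotypes lay closer. The medians were then 4.76 and 4.77 in the double mutant males and 4.39 to 4.46 in the other males. In females they were 3.09 to 3.24 in mutants and 2.96 and 2.90 in WT. Of the members, 106 carry a symbol and 50 only an identifier; 131 are protein-coding and 4 long noncoding RNA genes in the RefSeq gene table, and 21 were not found there. Together they took 3.7% to 9.53% of all counts in males and 0.352% to 1.32% in females. Without *hpx*, the shares were 1.48% to 2.99% in males and 0.317% to 0.841% in females.

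**Figure D1:**
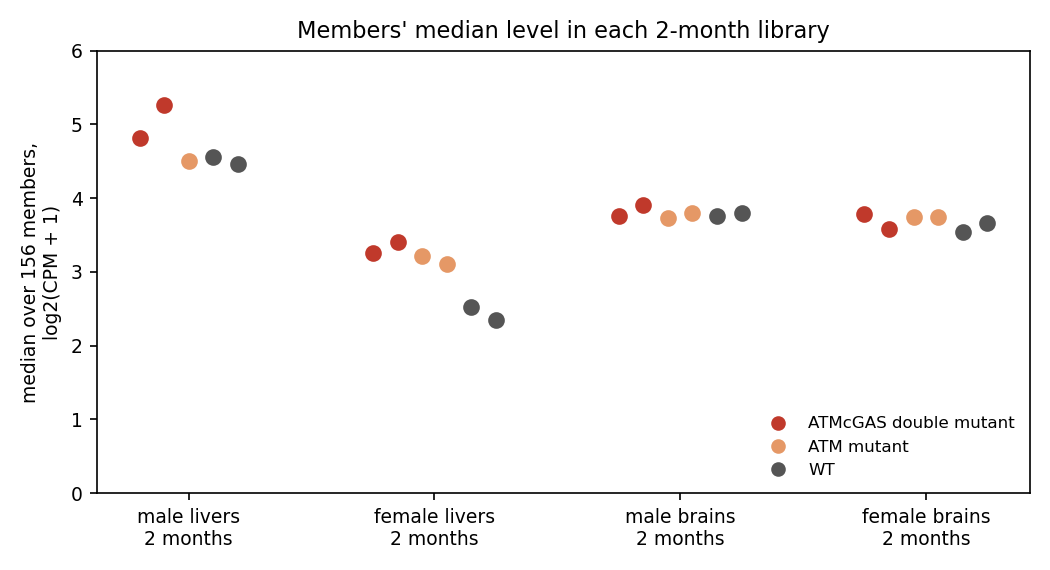
Each point is 1 library of the 2-month experiment, placed at its median log2(CPM + 1) over the 156 members and coloured by genotype. The 5 male livers sit at 4.46 to 5.26 and the 6 female livers at 2.35 to 3.40. The 12 brains overlap between the sexes, at 3.73 to 3.91 in males and 3.54 to 3.79 in females.

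The differences ran to 7.15, with a median of 1.32; 41 members differed by at least 2, 15 by at least 3 and 9 by at least 4. The 3 members nearest the threshold were LOC107379582 (1.002), *aox1* (1.006) and LOC107375928 (1.008). The 3 genes without overlap just below it were *c2cd3* (0.992), *keap1a* (0.991) and *slc10a3* (0.990).

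*Lpcat4* was even among the males. It had 85.9 and 80.5 CPM in the double mutant males, 75.8 CPM in the ATM mutant male and 67.3 and 59.1 CPM in the WT males, against a lowest, median and highest female of 0.971, 2.39 and 3.74 CPM. The mean was 73.7 ± 10.6 CPM in males (SD, n = 5) and 2.2 ± 1.06 CPM in females (SD, n = 6), a difference of 4.60 in log2(CPM + 1), or 4.37 with TMM scaling. The gap was 4.33 in double mutants, 4.50 in ATM mutants and 5.01 in WT, and the lowest male stood far above the highest female.

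Other members with a large difference were far less even among males. *Sapcd1* had 119 and 4.69 CPM in the double mutant males, 34.7 CPM in the ATM mutant male and 80.4 and 24 CPM in the WT males, and no female exceeded 0.0872 CPM. Its 6 counts over all 6 females make the female level no more than a few reads. *Prodha*, which encodes proline dehydrogenase, the first enzyme of proline breakdown, had 143 and 404 CPM in the double mutant males, 88 CPM in the ATM mutant male and 10.9 and 97.2 CPM in the WT males, and 1.01, 2.11 and 3.91 CPM as the lowest, median and highest female. Here WT male 1 was the lowest male and still above every female.

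*Slc22a6l*, named for a family of organic anion transporters, was high in all males. Its 179 and 398 CPM in the double mutant males, 173 CPM in the ATM mutant male and 222 and 180 CPM in the WT males stood against 20.3 and 43.2 CPM in the double mutant females, 20.1 and 14.9 CPM in the ATM mutant females and 0.24 and 0.187 CPM in the WT females. The 2 WT females were thus far below the other 4, as they were for *hpx*. *Hpx*, which encodes hemopexin, a plasma protein that binds haem, had 71636 and 7148 CPM in the double mutant males, 48645 CPM in the ATM mutant male and 59907 and 46262 CPM in the WT males. In females it had 3778 and 3891 CPM in double mutants, 4818 and 4106 CPM in ATM mutants and 500 and 346 CPM in WT. Double mutant male 4 was the low male and the one nearest the females. *Hpx* is also one of the 13 hepatocyte markers, and the only one of them that met the rule.

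*Faah*, which encodes fatty acid amide hydrolase, the enzyme that breaks down endocannabinoids, had 219 and 84.7 CPM in the double mutant males, 215 CPM in the ATM mutant male and 185 and 152 CPM in the WT males, against 3.92, 14.8 and 30.9 CPM as the lowest, median and highest female. *Frem2b*, of a family of extracellular matrix proteins, averaged 16.4 ± 14.5 CPM in males (SD, n = 5) and 0.742 ± 0.35 CPM in females (SD, n = 6). Both lacked overlap, and the low male was again double mutant male 4 for *faah* but WT male 1, at 4.58 CPM, for *frem2b*.

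**Figure D2:**
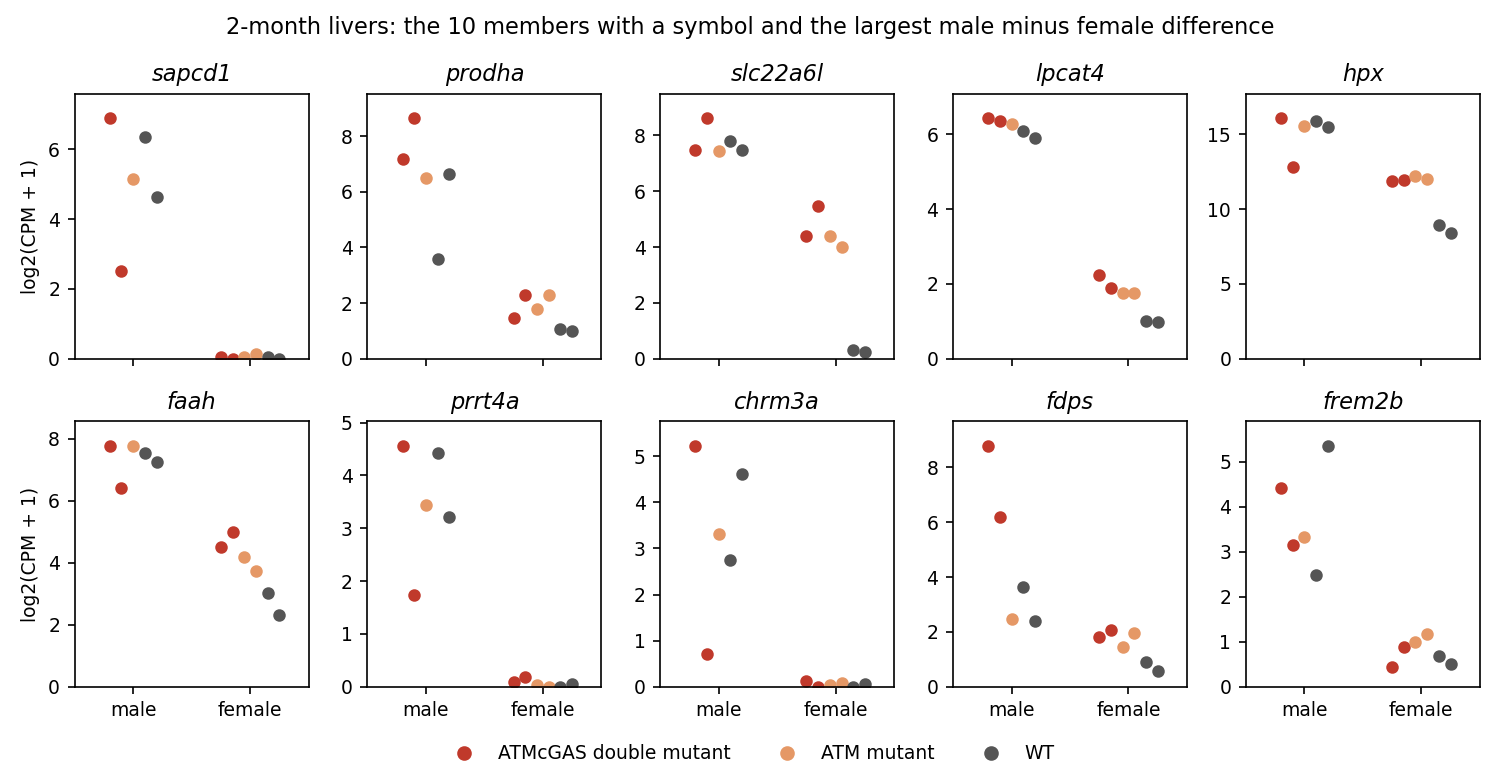
Panels show log2(CPM + 1) in each 2-month liver for the 10 members with a symbol and the largest difference; males are left, females right, and colour gives the genotype. *Lpcat4* is even among the males, double mutant male 4 is the lowest male for *sapcd1*, *hpx*, *faah*, *prrt4a* and *chrm3a*, and both WT females lie below the 4 mutant females for *prodha*, *slc22a6l*, *lpcat4*, *hpx*, *faah* and *fdps*.

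Among the members with a symbol, *hpx* had the highest mean CPM in males. After it came *agxtb*, the glyoxylate aminotransferase of the peroxisome or mitochondrion, with 1699 and 1697 CPM in the double mutant males, 1776 CPM in the ATM mutant male and 1295 and 1550 CPM in the WT males. The lowest, median and highest female had 217, 658 and 1035 CPM. The males lay close together, and the highest female was an ATM mutant. *Ido1*, whose enzyme opens the ring of tryptophan, averaged 1342 ± 380 CPM in males and 650 ± 217 CPM in females. The terminal complement components *c8b* and *c7b* averaged 1060 ± 367 and 840 ± 739 CPM in males and 484 ± 201 and 217 ± 94.6 CPM in females. For *c7b*, 2126 CPM in double mutant male 4 stood against 363 to 802 CPM in the other 4 males.

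*Lpl*, the lipase that frees fatty acids from lipoproteins, had 763 and 616 CPM in the double mutant males, 928 CPM in the ATM mutant male and 513 and 440 CPM in the WT males, against 118, 140 and 419 CPM as the lowest, median and highest female. The highest female, an ATM mutant, almost reached the lowest male. *Ogdh*, a subunit of the oxoglutarate dehydrogenase of the citric acid cycle, averaged 563 ± 125 CPM in males and 267 ± 31.5 CPM in females. *Slc1a4*, a carrier of neutral amino acids, averaged 301 ± 51.6 and 152 ± 80.5 CPM, and *mpp1*, a membrane scaffold protein, 281 ± 118 and 122 ± 55.9 CPM (SD, n = 5 males and 6 females for each). Of the 10 members with a symbol and the highest male CPM, *hpx*, *agxtb* and *c7b* met the rule after TMM scaling too, while *ido1*, *c8b*, *lpl*, *pla2g15*, *ogdh*, *slc1a4* and *mpp1* did not.

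Some members lie beside each other. In the order of the RefSeq gene table (assembly NfurGRZ-RIMD1; the build behind the counts is not given in the sources used here), 22 of the 135 placed members fell into 9 runs in which at most 1 other gene separates neighbours. The longest run holds 4 members without a symbol, all protein-coding. Among them was the member with the largest difference of all, singled out here after its values were seen. This gene, LOC107389174, had 4703 and 24.4 CPM in the double mutant males, 285 CPM in the ATM mutant male and 1049 and 391 CPM in the WT males, against 0.0374, 2.99 and 5.39 CPM as the lowest, median and highest female. Its neighbour LOC107388537 averaged 567 ± 300 CPM in males and 43.7 ± 25.6 CPM in females, LOC107389173 99.6 ± 51.7 and 4.85 ± 3.43 CPM, and LOC107389175 8.32 ± 4.27 and 0.397 ± 0.204 CPM. In all 4 genes double mutant male 1 was the highest male and double mutant male 4 the lowest. Whether the authors' counting split reads between near-identical copies here was not tested.

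Another run held *si:dkey-5i3.5*, *prrt4a* and *impdh1a*, the last an enzyme of guanine nucleotide synthesis. Another held *casq1b*, which encodes a calcium-binding protein of the sarcoplasmic reticulum, LOC107376973 and LOC107376972. LOC107376972 had 148 and 5877 CPM in the double mutant males, 81.8 CPM in the ATM mutant male and 773 and 88.2 CPM in the WT males, against 5.31, 29.6 and 52.2 CPM as the lowest, median and highest female. Its 2 highest males were the 2 with the most leukocyte marker counts. *Agxtb* is next to *kif1ab*, a neuronal motor protein gene whose counts averaged 30.2 ± 6.82 CPM in males and 8.16 ± 3.47 CPM in females.

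Of 38 genes of phospholipid acyl remodelling and synthesis in the table, 3 were members and none met the mirrored rule. The rule took in 0.622% of all genes. The share of members in this list and in those that follow was not tested. Besides *lpcat4*, *pla2g15*, a phospholipase of the lysosome, averaged 605 ± 89.9 CPM in males and 278 ± 144 CPM in females. *Gpat4*, which starts glycerolipid synthesis, averaged 23.1 ± 11.3 and 8.47 ± 2.49 CPM (SD, n = 5 males and 6 females for each). The median difference over the 33 genes of this list above 1 CPM was 0.37, close to the 0.27 of all genes, and with TMM scaling *lpcat4* was the only one of the 3 that met the rule. The related *lpcat2* and *lpcat3* differed by -0.59 and 0.43 (-0.88 and 0.15 with TMM scaling), and *lpcat1* had at most 0.136 CPM in any liver.

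Of 29 genes of growth hormone and sex hormone signalling, none was a member and 1 met the mirrored rule. That gene was *esr1*, an oestrogen receptor, with 12.7 to 23.7 CPM in males and 32.7 to 837 CPM in females. The receptor genes for growth hormone, *ghr* and *ghrb*, differed by 0.29 and 0.77 (0.00 and 0.47 with TMM scaling), and the androgen receptor gene *ar* by -0.13 (-0.44 with TMM scaling). *Cish*, a suppressor of cytokine and growth hormone receptor signalling, differed by 1.57, with 76.5 to 158 CPM in males and 20.3 to 88.3 CPM in females, so the sexes overlapped.

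Of 69 genes of steroid, bile acid and xenobiotic metabolism, 49 exceeded 1 CPM and 3 were members, where the rule took in 0.622% of all genes. *Hsd17b3*, whose enzyme makes testosterone in the mammalian testis, had 19.1 and 2.74 CPM in the double mutant males, 4.66 CPM in the ATM mutant male and 7.85 and 6.85 CPM in the WT males, against 0.272, 0.444 and 0.640 CPM as the lowest, median and highest female. *Hsd17b7*, which acts in cholesterol synthesis and on oestrone, averaged 16.7 ± 9.01 CPM in males and 5.33 ± 2.92 CPM in females. *Aox1*, aldehyde oxidase, averaged 98.6 ± 23.5 and 51.7 ± 20.9 CPM (SD, n = 5 males and 6 females for each). After TMM scaling *hsd17b3* alone of the 3 met the rule.

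Of 102 genes of fatty acid, cholesterol and lipoprotein metabolism, 77 exceeded 1 CPM, 4 were members and 1 met the mirrored rule. The rule took in 0.622% of all genes, and 1 gene of this list met it after TMM scaling. *Lpl* is given above. *Cpt1a2b*, a carnitine palmitoyltransferase that brings fatty acids into mitochondria, averaged 11.9 ± 4.73 CPM in males and 5.15 ± 2.74 CPM in females. *Ppargc1a*, a coactivator of mitochondrial genes, had 30.1 and 34.2 CPM in the double mutant males, 58.7 CPM in the ATM mutant male and 34.5 and 83.4 CPM in the WT males, against 3.88, 11.6 and 26.8 CPM as the lowest, median and highest female. The fourth, *srebf2*, is described with the sterol genes below.

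Of 345 genes of neurotransmitter receptors, channels and synapses, 72 exceeded 1 CPM and 3 were members, while the rule took in 0.622% of all genes. The male means of these 3 members were 12.7 to 22.8 CPM. *Chrm3a*, a muscarinic acetylcholine receptor, had 36.6 and 0.64 CPM in the double mutant males, 8.87 CPM in the ATM mutant male and 5.69 and 23.4 CPM in the WT males. Its 7 counts over the 6 females amount to at most 0.0883 CPM. *Prrt4a* averaged 12.7 ± 8.61 CPM in males and 0.0433 ± 0.0507 CPM in females, and *slc6a16a*, of the neurotransmitter transporter family, 22.8 ± 21.4 and 4.49 ± 1.21 CPM. Of 317 genes of growth factors, hormones and their receptors, 142 exceeded 1 CPM and 4 were members, again beside 0.622% of all genes. After TMM scaling 1 gene of this list met the rule. *Fgf14*, an intracellular fibroblast growth factor homologue, averaged 4.81 ± 4.99 CPM in males and 0.0814 ± 0.123 CPM in females. The chemokine gene *ccl20a.3* averaged 4.54 ± 3.52 and 1.18 ± 0.226 CPM, the growth factor receptor *pdgfra* 21.9 ± 4.67 and 10.5 ± 3.59 CPM, and the procollagen protease *bmp1* 128 ± 23.7 and 58.7 ± 27 CPM (SD, n = 5 males and 6 females throughout).

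A group that was noticed among the members after their values were seen is that of cholesterol synthesis. Of 26 genes of the pathway and its control in the table, 8 were members, and all of the 25 above 1 CPM had a higher male mean. The median difference over these 25 was 1.85, and 1.54 with TMM scaling, where that of all genes over 1 CPM was 0.27 and 0.01. The members included enzymes from early to late steps, *aacs*, *mvk*, *fdps*, *nsdhl*, *hsd17b7* and *sc5d*, the transcription factor gene *srebf2*, which drives the pathway, and *npc1l1*, which takes up cholesterol. Since the members were picked out this way, the count supports no claim about the pathway.

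Double mutant male 1 was the highest male for all 8 of these members. *Fdps*, farnesyl diphosphate synthase, had 444 and 71.5 CPM in the double mutant males, 4.56 CPM in the ATM mutant male and 11.5 and 4.3 CPM in the WT males, against 0.486, 2.13 and 3.16 CPM as the lowest, median and highest female. *Nsdhl*, which removes methyl groups from the sterol ring, had 173 and 58.2 CPM in the double mutant males, 13.1 CPM in the ATM mutant male and 17.7 and 9.28 CPM in the WT males, and 4.79 to 8.14 CPM in females. *Srebf2* had 329 and 249 CPM in the double mutant males, 61.2 CPM in the ATM mutant male and 73.2 and 73.7 CPM in the WT males. It had 17.2 and 21.1 CPM in the double mutant females, 29.6 and 34.7 CPM in the ATM mutant females and 38.8 and 24.3 CPM in the WT females. So within males both double mutants were above the others for all 3 genes, and within females they were the lowest for *srebf2*.

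The other genes of the list did not meet the rule because the sexes overlapped. *Hmgcs1*, which makes the precursor of mevalonate, averaged 669 ± 904 CPM in males and 48 ± 26.5 CPM in females, and *lss*, which closes the sterol rings, 86.2 ± 119 and 5.66 ± 3.91 CPM. Summed over the 26 genes, the level was 10049 and 4165 CPM in the double mutant males, 2274 CPM in the ATM mutant male and 1579 and 1589 CPM in the WT males. In females it was 574 and 630 CPM in double mutants, 1181 and 1290 CPM in ATM mutants and 1158 and 1002 CPM in WT. The sexes did not overlap in this sum, and the gap was smallest between the WT males and the ATM mutant females.

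**Figure D3:**
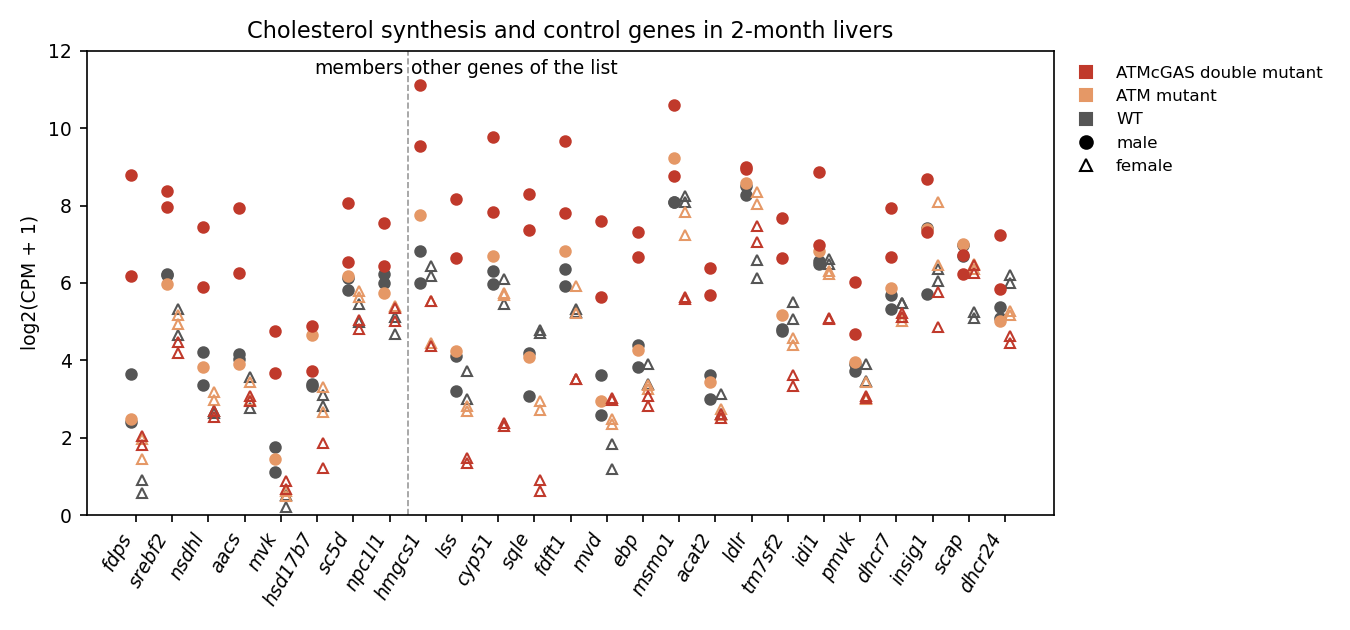
Each column is 1 of the 25 genes of cholesterol synthesis or its control above 1 CPM, with log2(CPM + 1) of the 5 male livers (filled circles) left of the 6 female livers (open triangles), coloured by genotype; members stand left of the dashed line. The 2 double mutant males are the highest points in most columns, as for *fdps* at 444 and 71.5 CPM, and the double mutant females are often the lowest.

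A second such group, of lysosomal proteins, was also noticed after the values were seen: 8 of 47 genes of a list of lysosomal enzymes and their control were members. The rule took in 0.622% of all genes. Since the list was drawn up from what the members showed, this count supports no claim about the lysosome. The median difference over the 44 genes of the list above 1 CPM was 0.50, and 0.22 with TMM scaling. The members included *man2b1*, *ctsa*, *ctsz*, *pla2g15* and *tpp1*, which encode enzymes of the lysosome, *tfe3a*, a transcription factor of its genes, and the autophagy receptor gene *sqstm1*. *Man2b1*, lysosomal alpha-mannosidase, had 63.9 and 400 CPM in the double mutant males, 48.8 CPM in the ATM mutant male and 81.4 and 67.7 CPM in the WT males, against 16.6, 34.6 and 37 CPM as the lowest, median and highest female. *Sqstm1* had 65.5 and 321 CPM in the double mutant males, 46.7 CPM in the ATM mutant male and 65.6 and 35 CPM in the WT males, and 8.85 to 23.6 CPM in females. Double mutant male 4, the library with leukocyte markers at 332 CPM, was the highest male for both genes and for *ctsa*, *ctsz*, *tpp1* and *tfe3a*, but not for *pla2g15*. The part of those cells was not tested.

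Whether genotype altered the members was asked first across both sexes, with sex in the model (edgeR quasi-likelihood test, Benjamini-Hochberg adjustment over 16174 genes). No member passed an adjusted p of 0.05 in any of the 3 contrasts. Between ATM mutants and WT, 0 of 156 members and 0% of all genes passed. At an unadjusted p under 0.05 there were 30 members (10% of all genes), and DESeq2 called 4 members, all higher in the mutant (0.785% of all genes). Between double mutants and WT, 0 members but 0.662% of all genes passed; 34 members had an unadjusted p under 0.05 (19.5% of all genes), and DESeq2 called 11, all higher in the mutant (7.82% of all genes). Between double mutants and ATM mutants, 0 members and 0.0433% of all genes passed; 9 members had an unadjusted p under 0.05 (11.5% of all genes), and DESeq2 called 2, both lower in the double mutant (2.32% of all genes). At an unadjusted p under 0.05 (edgeR) the members' shares in the 3 contrasts were 19.2%, 21.8% and 5.77%. A share of members below or near that of all genes, as in both contrasts with double mutants, is no result about the members. For ATM mutants against WT the share was above that of all genes at an unadjusted p and by DESeq2. Those livers also chose the members. For double mutants against WT the count depended on single libraries. It was 2 members without WT male 1 (4.69% of all genes), 2 without double mutant male 1 (2% of all genes) and 4, *lpcat4* among them, without double mutant male 4 (3.49% of all genes).

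The members' fold changes leaned one way without passing. The median log2 fold change of the members was 0.25 for ATM mutants against WT, where that of all genes was -0.02, and 0.38 for double mutants against WT, where that of all genes was 0.00. Positive values were found in 71.2% and 78.8% of members, and in 47.3% and 50.5% of all genes. Both contrasts share the WT livers, and the livers compared also chose the members. Low values in WT females and high values in double mutant males both helped a gene to meet the rule. The lean is therefore no independent result about genotype. Between double mutants and ATM mutants the medians were 0.08 for members and 0.04 for all genes. *Lpcat4* gave 0.51 ± 0.208 (SE, adjusted p = 0.47) in ATM mutants against WT, 0.55 ± 0.191 (SE, adjusted p = 0.161) in double mutants against WT and 0.03 ± 0.202 (SE, adjusted p = 0.957) in double mutants against ATM mutants. The member with the smallest p in the first contrast was *smad2*, a signal transducer of TGF-beta receptors, at 0.76 ± 0.191 (SE, adjusted p = 0.421). In the second it was LOC107376973, at 1.55 ± 0.375 (SE, adjusted p = 0.0809), and in the third *lpl*, at -1.19 ± 0.327 (SE, adjusted p = 0.229).

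Of the genes of the fixed lists that are no members, 5 passed between double mutants and WT (edgeR, values on the log2 scale). Of all genes tested, 0.662% passed. The share over the tested genes of the lists was not computed, so these calls are no result about the lists. In the growth and sex hormone list *foxa2*, a liver transcription factor, fell by 2.17 (adjusted p = 0.0359) and LOC107375066, 1 of 2 genes with the glucocorticoid receptor symbol *nr3c1*, by 0.77 (adjusted p = 0.0493). In the phospholipid list *agpat5*, which makes phosphatidic acid, rose by 0.90 (adjusted p = 0.0493). In the neurotransmitter list *slc17a9*, a nucleotide transporter, rose by 1.15 (adjusted p = 0.0332) and the GABA receptor gene *gabbr1* fell by 1.65 (adjusted p = 0.0385). No gene of the lists passed in ATM mutants against WT or in double mutants against ATM mutants.

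In the values, the WT females stood lowest. Both WT females lay below all 4 mutant females for 107 of 156 members, where 41.2% of all genes did. After TMM scaling they did so for 62 of 156, where 15.4% of all genes did. The WT females also entered the rule, and low values in them helped a gene to meet it. These counts are therefore no independent result about genotype. The median gap between the sexes was 1.42 in double mutants, 0.94 in ATM mutants and 1.76 in WT, while that of the 13393 genes over 1 CPM was 0.07, 0.08 and 0.60. With TMM scaling the members' median gaps were 1.34, 0.85 and 1.25, and 113, 60 and 100 members kept a gap of at least 1. The order of the genotypes thus changed with the scaling, and only 1 male stands behind the ATM mutant gap. The WT females that were lowest were also those with the most *vtg3* counts and the lowest sums of hepatocyte markers, at 45804 and 40909 CPM against 142746 to 173395 CPM in the mutant females. The part of these in the members' levels was not tested.

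Since the members are high in males, double mutant males were also set against WT males, 2 livers each (same test, 1 mean for each sex and genotype). None of the 156 members passed, with 0.0124% of all genes; 27 members had an unadjusted p under 0.05 (12.8% of all genes), and DESeq2 called 8, all higher in the double mutants (1.43% of all genes). Those 8 were *fdps*, *aacs*, *srebf2*, *nsdhl*, *mvk*, *gpat4*, *fcho2* and LOC107376973, and 5 of them are sterol genes. The double mutant males also entered the rule, and high values in them helped a gene to meet it. For *aacs* the gap between the sexes was 4.08 in double mutants, 0.71 in ATM mutants and 0.93 in WT. For *gpat4* it was 1.45, 1.06 and 1.27. The 8 calls are therefore no independent result about the members. In the edgeR fit *srebf2* was 1.86 ± 0.322 higher on the log2 scale (SE, adjusted p = 0.232), with 289 ± 57 CPM in double mutant males and 73.4 ± 0.352 CPM in WT males (SD, n = 2 each). *Mvk*, mevalonate kinase, was 3.36 ± 0.635 higher (SE, adjusted p = 0.232), with 26.2 and 11.6 CPM in double mutant males and 2.36 and 1.16 CPM in WT males. *Lpcat4* gave 0.26 ± 0.227 (SE, adjusted p = 0.64). Of the genes of the lists that are no members, *aclyb*, the enzyme that supplies acetyl-CoA for sterol and fatty acid synthesis, passed at 3.36 ± 0.273 (SE, adjusted p = 0.0368).

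This result rested on which double mutant male was kept. Without double mutant male 4, 9 members passed, all higher in the double mutant (0.36% of all genes): *aacs*, *nsdhl*, *srebf2*, *fdps*, *mvk*, *sc5d* and *npc1l1* of the sterol genes, and *flt4* and *slc6a16a*. Without double mutant male 1, 47 members passed, 32 higher and 15 lower, with 12.5% of all genes. Here *aacs*, *srebf2*, *nsdhl*, *fdps* and *mvk* were higher, at 1.37 to 2.80 on the log2 scale. *Man2b1* (2.04), *sqstm1* (2.30), *ctsz* (1.38) and *ctsa* (1.31) were higher with them, and *hpx* (-3.27), LOC107389174 (-5.25), *sapcd1* (-3.84) and *faah* (-1.37) were lower. In both fits the single double mutant male is assumed to vary like the other groups. Both use the same WT males, and all these livers entered the rule. Neither fit is therefore an independent result about the members. Of 156 members, double mutant male 1 was the highest male for 54 and double mutant male 4 for 71. With TMM scaling these counts were 62 and 56. Without it, WT male 2 was the lowest male for 53 members, double mutant male 4 for 31 and the other males for 21 to 27.

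In the brain most members were counted, and the sexes overlapped in each of them. Of the 156, 118 exceeded a mean of 1 CPM over the 12 brains, 9 had 10 or fewer counts in all of them, and for 56 the brain median was above that of the male livers. The median over members was 3.73 to 3.91 in male brains and 3.54 to 3.79 in female brains. *Hpx* had at most 0.268 CPM and *lpcat4* at most 1.01 CPM in any brain. *Chrm3a* ranged from 16.5 to 29.6 CPM, *frem2b* from 14.2 to 27.3 CPM, *fgf14* from 33.3 to 46.3 CPM and *kif1ab* from 363 to 531 CPM, with both sexes mixed. For *prrt4a* the 6 male brains had 4.4 to 10.9 CPM and the 6 female brains 6.01 to 8.30 CPM, so the level that sets male livers apart was found in brains of both sexes.

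None of the 126 members tested in brain passed for males against females (edgeR with genotype in the model, adjusted over 19883 genes, 0.00503% of which passed). At an unadjusted p under 0.05 there were 16, or 12.7% of those tested (8.9% of all genes), 13 higher and 3 lower in males. DESeq2 called 1, LOC107395922 (0.206% of all genes). In no member did all 6 males lie above all 6 females, as 0.0654% of the tested genes did. The median log2 fold change was 0.05 for members and 0.01 for all genes. Positive values were found in 62.7% of members and in 52.8% of all genes. The members thus leaned slightly to males in brain, and this lean was not tested. Their male and female levels, which lie apart in liver by the rule, overlapped in brain.

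For 2 members a single female carried the overlap. LOC107395922, protein-coding and without a symbol, had 7.47 to 9.85 CPM in the 6 male brains and 0.967 to 1.05 CPM in 5 of the 6 female brains, but 8.94 CPM in the brain of ATM mutant female 1. *Gsg1l*, which encodes an auxiliary subunit of AMPA-type glutamate receptors, had 12.1 to 17.8 CPM in the male brains, 3.12 to 5.32 CPM in the same 5 females and 15.9 CPM in ATM mutant female 1. In both genes this brain lay within the male range. The liver of the same sample number was also the highest female: 1.46 CPM for LOC107395922, next to 1.58 to 3.07 CPM in male livers and 0.272 to 0.56 CPM in the other female livers, and 20.4 CPM for *gsg1l*, next to 22.1 to 25.9 CPM and 8.57 to 11.6 CPM. That liver was the highest female for 32 of the 156 members. For 12 members it was also nearer to the lowest male than to the next female, so this was not particular to these 2 genes. At *lpcat4*, 2.39 CPM, and at *vtg3*, 1571 CPM, that liver was with the females.

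Without ATM mutant female 1, these were the 2 members that passed in brain, where 0.104% of all genes did: LOC107395922 at 3.07 ± 0.12 (SE, adjusted p = 3.94e-07) and *gsg1l* at 1.88 ± 0.156 (SE, adjusted p = 0.000392). With that library the values were 2.24 ± 0.56 (SE, adjusted p = 0.556) and 1.40 ± 0.366 (SE, adjusted p = 0.556). Each library was left out in turn, and this fit was singled out after the values were seen. The library it drops is the female that lay with the males at these 2 genes. The small p-values without it are therefore no independent result. In the gene table the 2 genes lie on 1 chromosome with 17 genes between them. That chromosome holds 13 of the 16 placed genes among the 21 that passed without this library, but only 7 of the 135 placed members (5.19%), where it holds 7.16% of all placed genes. Whether the label or the genotype of this fish accounts for its values was not tested.

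**Figure D4:**
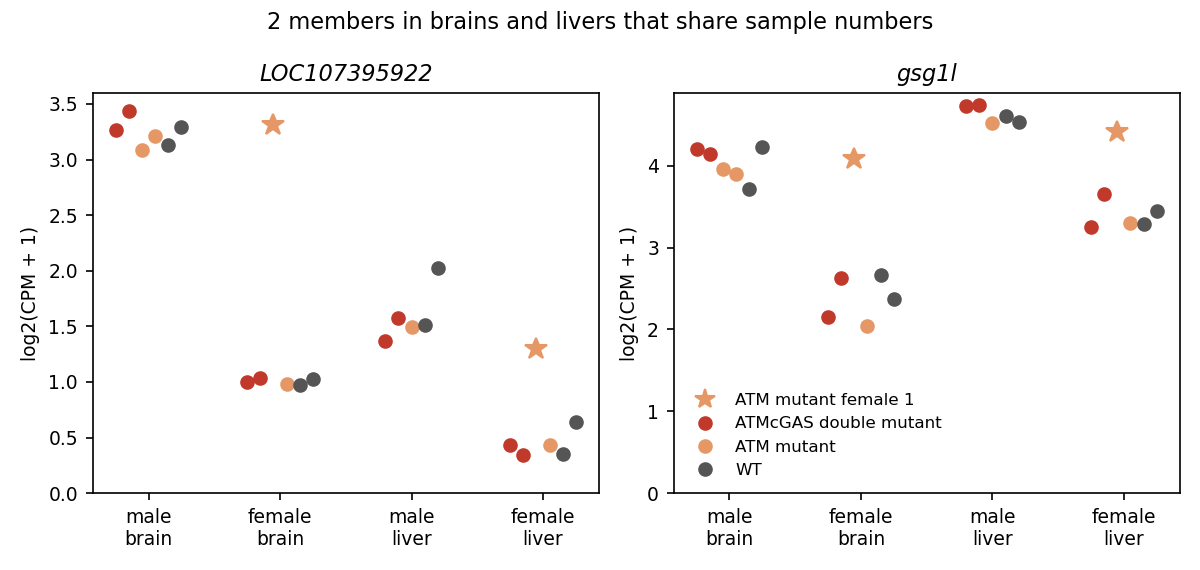
Points show log2(CPM + 1) of LOC107395922 and *gsg1l* in each 2-month brain and liver, males left of females, coloured by genotype; the star is ATM mutant female 1. In brain the star (8.94 and 15.9 CPM) lies among the 6 males and the other 5 females lie below, and in liver it is the highest female.

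The 3-month male livers are a separate experiment with no females. Their table holds 105 of the 156 members, so CPM was recomputed over the 16383 shared genes in both experiments; the levels below were set side by side across tables that differ in age and experiment and were normalized separately, and were not tested. In single livers, 74, 91 and 94 of the 105 members lay above every 2-month female in Blm1 mutants L29, L3 and L30, and 85, 78, 69 and 77 in WT males L19, L33, L7 and L8, where 9.67% to 24.9% of all shared genes did. For 51 members all 7 livers lay above every 2-month female, as 1.56% of the shared genes did, and for 0 members did all 7 lie at or below the highest female. The females that set this bound were also used to choose the members. On the shared genes the 2-month sexes no longer stood apart for every member. The lowest male and highest female had 356 and 358 CPM for *slc1a4*, and 1603 and 1790 CPM for LOC107376230.

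*Lpcat4* had 99.3, 64.8 and 108 CPM in the Blm1 mutants L29, L3 and L30, and 78.5, 134, 87.8 and 56.5 CPM in WT males L19, L33, L7 and L8. On the same genes the 2-month males had 91.5 to 132 CPM and the 2-month females 2.01 to 6.21 CPM. Each 3-month male was thus far above the females. L3, L19, L7 and L8 lay below the lowest 2-month male and L33 above the highest, with L29 and L30 within the male range. *Hpx* had 89980, 33439 and 34975 CPM in the Blm1 mutants and 63691, 95707, 93323 and 42974 CPM in WT, within the 10482 to 110258 CPM of 2-month males. *Sapcd1*, at 13.5 to 70.2 CPM in the 7 livers, and *chrm3a*, at 14.6 to 65.9 CPM, also stood above all 2-month females, at most 0.147 CPM for each.

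Of the 8 sterol members, the 3-month table holds 4, *fdps*, *nsdhl*, *sc5d* and *srebf2*, and none of these 4 was among the 51. *Fdps* had 6.50, 4.02 and 6.15 CPM in the Blm1 mutants and 6.55, 2.82, 5.53 and 3.48 CPM in WT, next to 6.66 to 684 CPM in 2-month males and 1.05 to 5.24 CPM in 2-month females. *Nsdhl*, at 4.85 to 13.6 CPM in the 7 livers, *sc5d*, at 30.7 to 92.4 CPM, and *srebf2*, at 39.1 to 106 CPM, overlapped the 2-month female ranges, which reached 13.4, 90.3 and 77.9 CPM. For *sc5d* the 2-month sexes themselves overlapped on the shared genes, with 86.2 CPM in the lowest male. For *fdps* and *nsdhl* all 7 livers lay below the lowest 2-month male, which had 6.66 and 14.4 CPM.

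**Figure D5:**
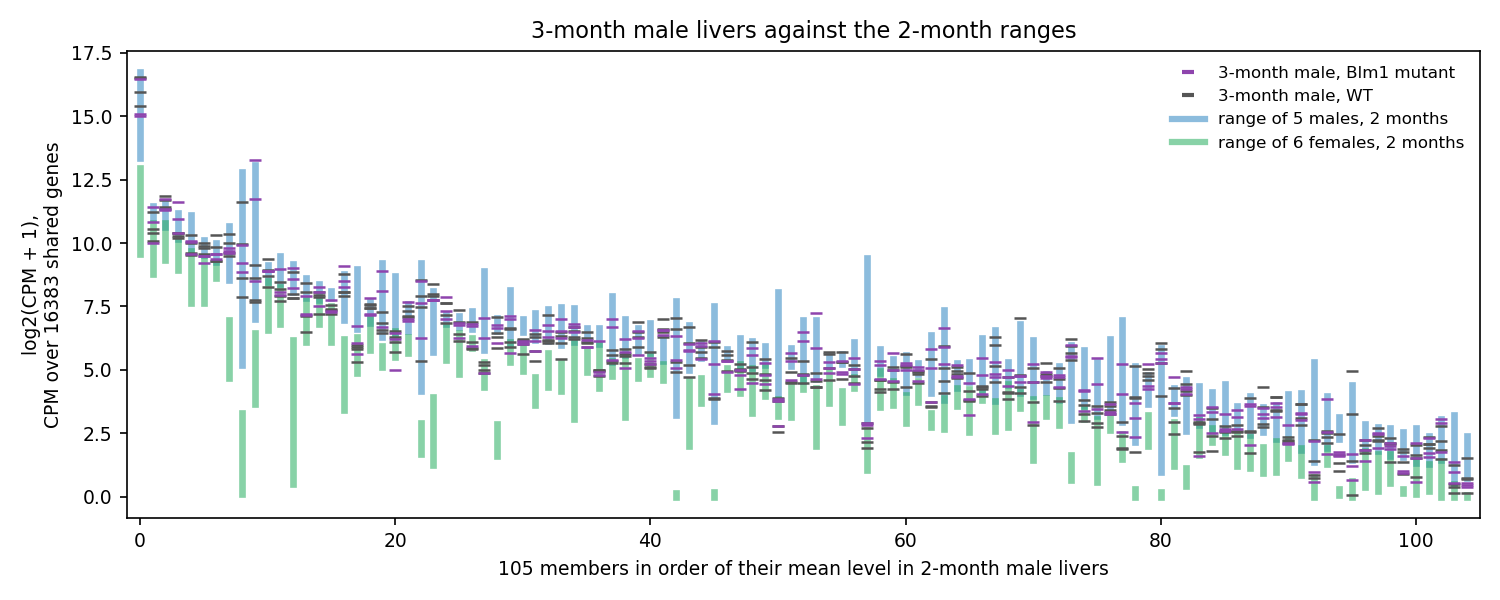
The 105 members in both tables are ordered by their mean level in 2-month males; bars give the range of the 5 males (blue) and 6 females (green) at 2 months, and dashes the 7 male livers at 3 months, all as log2(CPM + 1) over 16383 genes. Most dashes lie above the female range, 51 members with all 7, and the sterol gene *fdps* is among those that do not. On these shared genes the male and female bars overlap for some members.

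Blm1 mutants were compared with WT among these males (edgeR, adjusted over 10374 genes). None of the 105 members passed, as 0% of all genes did; 12 had an unadjusted p under 0.05 (8.05% of all genes), and DESeq2 called 5, 4 higher and 1 lower (1.53% of all genes). The median log2 fold change was -0.01 for members, where that of all genes was 0.00. *Lpcat4* gave -0.06 ± 0.3 (SE, adjusted p = 0.978). The smallest p was that of LOC107376972, at 3.72 ± 0.95 (SE, adjusted p = 0.499), with 365, 9842 and 3454 CPM in Blm1 mutants L29, L3 and L30 and 205 to 563 CPM in WT. This was also the member with the widest spread over the 7 livers.

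Without Blm1 mutant L29, 9 members passed, all higher in the mutant (3.65% of all genes), with LOC107376972 at 4.26, *sqstm1* at 1.55 and *man2b1* at 1.68 on the log2 scale (edgeR). The 2 Blm1 mutants left in that fit, L3 and L30, had leukocyte markers at 139 and 44.4 CPM, against 11.1 CPM in L29 and 13 to 15.3 CPM in WT. LOC107376972, *sqstm1* and *man2b1* were thus highest in the libraries with the most leukocyte markers at both ages, L3 and double mutant male 4. The part of those cells was not tested.

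The 3-month libraries of cGAS mutants and their WT are labelled brain, while the isolation protocol given for them speaks of livers. Markers were summed over the genes this table holds, with CPM over 16383 genes. The 4 neuron and brain markers summed to 633 to 1786 CPM in these 7 libraries, against 2056 to 3172 CPM in the 2-month brains and at most 2.43 CPM in the 2-month livers. The 11 hepatocyte markers summed to 420 to 7730 CPM, against 57678 to 249447 CPM in the livers, so the libraries stood apart from the livers on both lists. Skeletal muscle markers set them apart from the 2-month brains, where the 3 genes of the list summed to 18.7 to 453 CPM. They summed to 63520 and 69922 CPM in cGAS mutant males, 11788 CPM in the WT male, 43058, 37296 and 22283 CPM in cGAS mutant females and 12372 CPM in the WT female. The 20 most-counted genes likewise took 33.2% and 38.2% of counts in cGAS mutant males, 16.9% to 23.5% in cGAS mutant females and 11.5% in both WT libraries.

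In these libraries, males against females gave 0 of 100 tested members (edgeR with genotype in the model, 0% of 13455 genes), with 7 at an unadjusted p under 0.05 (3.41% of all genes) and 1 call by DESeq2, *casq1b* (0.164% of all genes). *Casq1b*, whose protein stores calcium in muscle, had 565 and 518 CPM in cGAS mutant males, 170 CPM in the WT male, 301, 212 and 190 CPM in cGAS mutant females and 105 CPM in the WT female, and at most 3.11 CPM in any 2-month brain. The cGAS mutant males were highest, as they were for the muscle markers, and the sexes overlapped. The part of muscle in this call was not tested. The median log2 fold change was -0.02 for members and 0.03 for all genes. *Lpcat4* had 0.0795 and 0.521 CPM in cGAS mutant males, 20.1 CPM in the WT male, 1.18 to 2.18 CPM in cGAS mutant females and 1.85 CPM in the WT female. The WT male alone was high, and the fitted difference was -0.15 ± 1.29 (SE, adjusted p = 0.998).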

How the data were processed

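PolyA RNA of liver and brain was sequenced as single-end reads, per the labels' protocols. The deposited tables hold raw counts per gene. Per the submitters' processing notes, FastQC 0.11.8, Trim Galore 0.6.4, cutadapt 3.4, STAR 2.7.6a and edgeR 3.32.1 were used; the genome build, the counting program and its strand setting are not given in the sources used here. The 2-month experiment has 25099 genes and both 3-month experiments have 16383. In the cGAS table, 8 gene names altered before deposit were restored by their position in the other 3-month table. Of 39 labelled samples, 37 libraries were used; 1 had 0 counts and 1 was not analysed here. CPM used total counts and a pseudocount of 1. Symbols and gene order came from a RefSeq gene table (NfurGRZ-RIMD1), which held 17481 of the 25099 genes and gave 5241 of 14280 LOC identifiers a symbol.

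Tests used edgeR 4.0.16 in R 4.3.3: filterByExpr, TMM scaling, the quasi-likelihood test and Benjamini-Hochberg adjustment over all genes tested, with a threshold of 0.05. Liver genotype contrasts had sex in the model, double mutant and WT males were compared with a mean for each sex and genotype, and brain contrasts had genotype in the model. The edgeR fit was checked on counts drawn with known changes. Alternatives were DESeq2 1.42.0, no filter on low counts, other scalings and pseudocounts, the replicate number as a block, and leaving out each library. Counts of reads have no molecular identifiers, so depth covers counting error only.

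The members and the gene lists were chosen with earlier results of these data known, and the cholesterol and lysosomal lists after the values were seen. Named genes are *lpcat4*, the 10 members with a symbol and the largest difference, the 10 with the highest male CPM, members that passed a test, members of the lists and the 3 genes on each side of the threshold. Other members are named for a run of neighbours, for a smallest p, for a call without 1 library or by DESeq2, and were chosen after their values were seen.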

Additional observations from a re-analysis of the deposited data

Results flagged for a closer look

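Of 94 groups of libraries examined for a sample far from the others, 7 had one, and chance gives about 1 in 20. In male livers, double mutant male 4 stood apart at *hpx* (7148 CPM, low), *mpp1* (490 CPM, high) and *cpt1a2b* (20.3 CPM, high). In female livers, ATM mutant female 2 stood apart at *fgf14* with 0.32 CPM. Among 3-month WT livers, L33 was high at *slc22a6l* (469 CPM) and in the median over the members (5.33 log2(CPM + 1)). Among 2-month male brains, double mutant male 4 had the highest median over the members (3.91 log2(CPM + 1)). That brain also had macrophage and leukocyte markers at 229 CPM (5 genes, CPM over 16383 genes), against 25.5 to 45.7 CPM in the other 2-month brains. The part of those cells was not tested there either.

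For 3 named members, double mutants differed from WT in opposite directions in the sexes, with every double mutant liver of each sex on its side of both WT livers after TMM scaling. *Srebf2* differed by 1.79 in males and -1.43 in females, *ppargc1a* by -0.88 and 0.64, and *pdgfra* by -0.36 and 0.31 on the log2 scale. The difference between the sexes was not tested.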

How the results depend on the processing

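The rule gave 156 genes. With TMM-scaled CPM it gave 70, of which 66 are among the 156, and with a pseudocount of 5 it gave 84, all of them members; leaving out each liver in turn gave 127 to 233. Without both WT females, an alternative chosen after seeing the data, it gave 111. The cause of these shifts was not tested.

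The edgeR count of members passing was 0 in all 7 comparisons. DESeq2 called 4 for ATM mutants against WT, 11 for double mutants against WT, 2 for double mutants against ATM mutants, 8 for double mutant males against WT males, 1 for 2-month brains, 5 for Blm1 mutants against WT and 1 for 3-month brains. Leaving out each library in turn gave 0 to 4 for double mutants against WT, 0 to 47 for double mutant males against WT males, 0 to 2 for 2-month brains, 0 to 9 for Blm1 mutants against WT and 0 in the other 3 comparisons. With the replicate block the count stayed at 0 in the 6 comparisons where it was fitted; it was not fitted for Blm1 mutants, whose numbers are not shared with WT. The deviations of same-numbered 2-month livers had a mean r of -0.0664 over 10 pairs (-0.584 to 0.39), against -0.0944 for other pairs. In 2-month brains the mean was 0.0446 over 12 pairs, against -0.0884. With so few pairs and so wide a range, this cannot tell whether the numbers pair the libraries.

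In 4 comparisons the sign of the *lpcat4* log2 fold change turned on leaving out 1 library. For double mutants against ATM mutants it lay between -0.15 and 0.18, with -0.01 without double mutant male 1. For double mutant males against WT males it lay between -0.03 and 0.53. For Blm1 mutants against WT it lay between -0.24 and 0.20, with 0.10 without L3. For males against females in 3-month brains it lay between -1.66 and 1.17, with 0.33 and 0.47 without cGAS mutant female 1 or male 3. Groups of 1 to 4 fish limit the precision of these values.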
